A study of Homo sapiens with 6 samples.

Results

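The genes described here are 9 protein-coding genes named in the literature as targets of the microRNAs miR-199a and miR-214: IKBKB, HIF1A, CAV1 and DDR1 for miR-199a-5p, MET, MTOR and CAV2 for miR-199a-3p, and ITCH and EZH2 for miR-214. They were chosen by symbol, out of 34834 genes with a quantified transcript, and the question asked of them was whether their mRNA is higher once DNM3OS is depleted. Of the 9, 7 had enough counts to be tested among 11814 tested genes. None of the 7 differed significantly between the groups, and of all tested genes only 1 (0.00846%) did. For every one of the 7 the knockdown samples overlapped the control samples. Of all tested genes, 4.42% were higher and 3.56% lower in every knockdown sample than in every control. Of the 7, 2 had a higher mean in the knockdown and 5 a lower one, beside 50.6% of all tested genes with a higher mean. The 2 members with a higher mean were IKBKB, with 0 counts on protein-coding transcripts, and CAV2, with a log2 fold change of 0.005.

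SKOV3 is an established human ovarian cancer cell line. The 6 samples were SKOV3 cells transfected with a lipofectamine reagent and 50 nM siRNA for 48 h, 3 with a SMARTpool against the long non-coding RNA DNM3OS (labelled DNM3OS knockdown) and 3 with a pool of non-targeting siRNA. All are transfected cells of 1 line, and nothing in the labels says that the replicates were separate cultures, so that the p-values below measure the spread between these samples, which may be technical. Libraries were made from total RNA after ribosomal RNA removal with a stranded kit.

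DNM3OS is transcribed antisense to the dynamin gene DNM3 and carries the hairpins of miR-199a-2 and miR-214. MicroRNAs guide a silencing complex to mRNAs through base pairing of their seed, mostly with matches in the 3′ UTR, which lowers the stability and translation of the mRNA. Both microRNAs are studied in fibrosis, angiogenesis and tumour progression, and their reported targets here include kinases, a transcription factor, membrane coat proteins, a ubiquitin ligase and a chromatin enzyme.

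The mature sequences are shown because the seed, given in capitals (bases 2 to 8 from the 5′ end), decides which letters were searched for in each target. They are RefSeq sequences on GRCh38.p14.
hsa-miR-199a-5p: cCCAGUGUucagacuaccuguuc
hsa-miR-199a-3p: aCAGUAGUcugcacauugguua
hsa-miR-214-3p: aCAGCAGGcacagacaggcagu
hsa-miR-214-5p: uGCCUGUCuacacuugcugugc
No pair of these arms shares a seed. MIR214 lies at chr1:172138798-172138907 and MIR199A2 at chr1:172144535-172144644, both on the minus strand within the DNM3 gene. The miR-199a arms have an additional source outside this locus, MIR199A1 at chr19:10817426-10817496, on the minus strand within DNM2, and the 3p arm made from MIR199B on chromosome 9 has the same letters as miR-199a-3p.

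The reverse complements of the seeds, ACACTGG for miR-199a-5p, ACTACTG for miR-199a-3p, CCTGCTG for miR-214-3p and GACAGGC for miR-214-5p, were searched on the transcript strand of the annotated 3′ UTR of each gene's canonical transcript (GENCODE release 44). They occur in 12.3%, 8.23%, 20.9% and 8.43% of 19229 such 3′ UTRs. Among the members, HIF1A, CAV1 and DDR1 held the letters for the arm they are reported for, as did MTOR and ITCH. These windows of 22 bases are shown, in the transcript's sense with the match in capitals, since they are where the reported pairing could be read from sequence.
HIF1A, miR-199a-5p, chr14:61747104-61747125, plus strand: tcctttttttggACACTGGtgg
CAV1, miR-199a-5p, chr7:116560848-116560869, plus strand: catttaaaacagACACTGGcat
DDR1, miR-199a-5p, chr6:30899605-30899626, plus strand: aatataggatagACACTGGaca
DDR1, miR-199a-5p, chr6:30899700-30899721, plus strand: tctccctgtcacACACTGGacc
DDR1, miR-199a-5p, chr6:30899823-30899844, plus strand: ccatcacctgaaACACTGGacc
MTOR, miR-199a-3p, chr1:11107347-11107368, minus strand: taaatgaaaagaACTACTGtat
ITCH, miR-214-3p, chr20:34510190-34510211, plus strand: gtatatgtcttcCCTGCTGtgt
All windows lie in 1 exon and equal the GRCh38 genome. Each of the 3 matches of DDR1 is followed by A, the longer form of a seed match, which 3.97% of the 3′ UTRs hold for this microRNA.

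IKBKB too held the letters for its reported arm, with 1 match to the miR-199a-5p seed, and its windows are not shown. It also held 2 matches to the miR-214-3p seed in its 3′ UTR of 1481 bases. The miR-199a-5p match and 1 of the miR-214-3p matches are likewise followed by A. No 7-base match to any of the 4 arms was found in the 3′ UTRs of MET (2253 bases), CAV2 (2420 bases) or EZH2 (263 bases). A shorter match to bases 2 to 7 followed by A, a class added after the values were seen, occurred in CAV2 for miR-199a-3p, as it does in 9.24% of the 3′ UTRs, and in MET for miR-214-5p, as in 16.7%. Apart from the matches above, it also occurred in DDR1 and ITCH for miR-199a-5p and in IKBKB for miR-214-3p. The CAV2 window is shown because it is for the reported arm of a gene with no match above.
CAV2, miR-199a-3p, chr7:116507214-116507235, plus strand: tgtcaacttgggCTACTGAact
A match is a description of letters, and its absence from these windows says nothing of other sites in the mRNA.

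The authors quantified transcripts with kallisto, which gives an estimated count and a TPM (a level per transcript length, scaled to a fixed total) for each transcript. Both were summed per gene here. Estimated counts on annotated genes came to between 1523046 and 1868325 per sample, so that 3 counts correspond to 1.61 to 1.97 CPM (counts scaled to library size), and apart from HIF1A and CAV2 no member had more than 121 counts in a sample. Knockdown replicate 1 stood apart from the other samples, with a chi-square per degree of freedom of 5.50 to 13.1 against each of them and 2.04 to 4.58 between the other 5. It had 60.5% of its counts on protein-coding transcripts and non-targeting replicate 2 had 62.0%, against 64.1% to 64.9% in the rest, and these 2 samples deviated from their group means together (r = 0.53 across genes). The quantified transcripts that matched the annotation include none of DNM3OS or of the 4 hairpin genes, and unmatched ones were assigned to no gene. Neither the extent of the knockdown nor any microRNA level could therefore be read from these files. The authors measured DNM3OS after knockdown by qRT-PCR, outside these files.

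The strand that was counted is not stated in the sources used here. The 86 ribosomal protein genes held 0.232% to 0.543% of the counts and the single gene PLLP 15.7% to 22.2%. Of 9 epithelial markers 7 were tested, with 1767 to 3276 summed counts per sample, of which KRT8 alone held 1195 to 2566. KRT8 was high at 782 to 1801 CPM. The other tested ones were lower, from ERBB2 at 144.7 to 496.7 CPM down to EPCAM at 8.84 to 19.6 CPM, with KRT18 at 17.7 to 94.1 CPM. KRT7 (4 to 12 counts) and MUC1 (0 in every sample) were not tested. Of 7 markers of other cells 5 were tested, with 364 to 615 summed counts and the highest sum in knockdown replicate 1. The highest of them was MYH11 at 100.6 to 148.4 CPM. On that scale it was higher in every knockdown sample than in every control, as were 4.42% of all tested genes. The leukocyte gene PTPRC stood at 51.8 to 82.1 CPM, while CD3E and VWF had at most 2 counts in a sample. CD68 stood at 26.2 to 38.2 CPM, PECAM1 at 16.8 to 28.8 CPM and COL1A1 at 5.70 to 12.4 CPM. Whether the member values hold reads of the opposite strand could not be told from these files, and the part of these markers in the results was not tested.

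The levels of the 9 members per length, in TPM over all 6 samples, ran from HIF1A with a mean of 156.0 (range 135.0 to 178.6) to ITCH with a mean of 1.52 (range 0 to 3.59). Between them stood CAV2 at 97.2, CAV1 at 61.1, IKBKB at 43.0, EZH2 at 22.5, MET at 22.3, DDR1 at 10.9 and MTOR at 3.53. Neighbours in this order had ranges that did not overlap only at HIF1A over CAV2 and at IKBKB over EZH2. The order rested in part on transcripts that are not protein-coding. On protein-coding transcripts alone the mean was 36.0 TPM for CAV2, 34.0 for CAV1, 26.7 for HIF1A, 20.95 for MET, 8.04 for EZH2, 5.29 for DDR1, 1.62 for MTOR, 1.52 for ITCH and 0 for IKBKB.

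**Figure D1:**
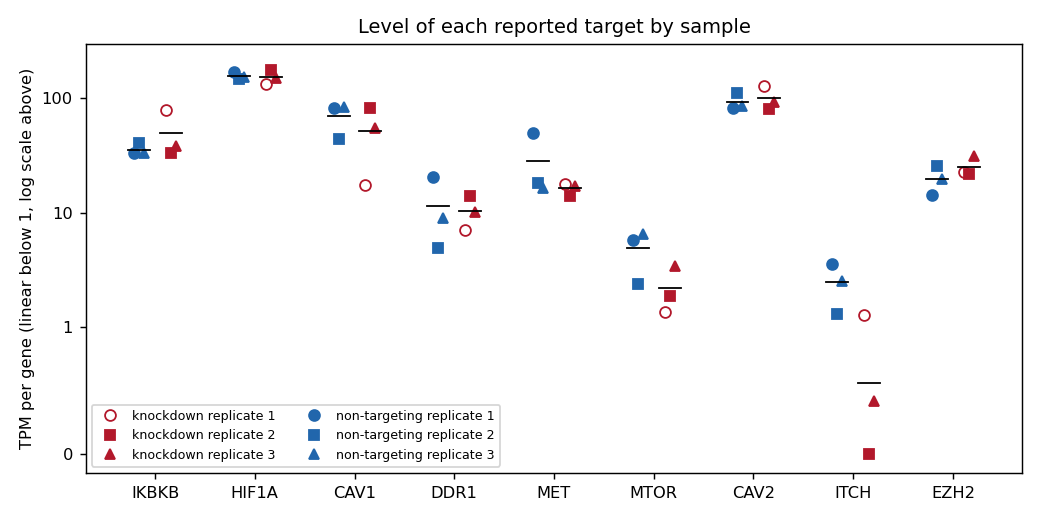
TPM per gene (y axis, linear below 1 and logarithmic above) of the 9 reported targets in each of the 3 non-targeting (blue) and 3 DNM3OS knockdown (red) samples, with the group mean as a black line and knockdown replicate 1 as an open circle. Knockdown replicate 1 was the highest sample for IKBKB (79.7 TPM) and CAV2 (128.8 TPM) and the lowest for HIF1A (135.0 TPM), CAV1 (17.4 TPM) and MTOR (1.35 TPM).

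IKBKB encodes IKKβ, the kinase that releases NF-κB from its inhibitor (ENSG00000104365, chr8:42271302-42332460, plus strand). The knockdown samples had 121, 40 and 46 estimated counts, against 50, 53 and 50 in the controls. In counts 1 knockdown sample, replicate 1, was above all controls and the other 2 were below them, and scaled to library size replicate 3 fell inside the control range. The mean was 38.5 ± 15.6 CPM in the knockdown and 30.9 ± 3.35 CPM in the controls (SD, n = 3), a log2 fold change of 0.34 ± 0.32 (SE) with an adjusted p of 1 by edgeR's exact test, and p = 0.7 by an exact two-sided permutation test, whose smallest possible value with 3 against 3 samples is 0.1. Without knockdown replicate 1 the log2 fold change was -0.04. None of the IKBKB counts fell on its 4 protein-coding transcripts in any sample: they lay mostly on retained-intron transcripts and on others with no defined coding sequence, with a few on nonsense-mediated decay transcripts, led by IKBKB-213 with 142.3 counts in all and IKBKB-212 with 101.2. The IKBKB values are therefore no measure of the mRNA that carries the 3′ UTR matches above.

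HIF1A encodes the oxygen-regulated subunit of the transcription factor HIF-1 (ENSG00000100644, chr14:61695513-61748259, plus strand). It had 184, 217 and 188 estimated counts after knockdown and 267, 151 and 212 with non-targeting siRNA. In counts the highest and the lowest of the 6 were both controls, whereas in CPM knockdown replicate 1 was the lowest (85.6 CPM). On the CPM scale the means were 121.4 ± 31.8 and 125.2 ± 26.6 (SD, n = 3), a log2 fold change of -0.05 ± 0.30 (SE) with an adjusted p of 1 by edgeR's exact test, and p = 0.9 by the exact permutation test. Without knockdown replicate 1 it was 0.16. Protein-coding transcripts held 58.6% of the counts, from 49.0% in non-targeting replicate 2 to 63.5% in knockdown replicate 3. The canonical HIF1A transcript, which holds the match above, was estimated at 0, 75.7 and 56.6 counts in the knockdown and 168.8, 45.3 and 85.6 in the controls. The division of counts between transcripts that share most of their bases is an estimate of the quantification and was not tested.

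CAV1 encodes caveolin-1, the main coat protein of caveolae, the small pits of the plasma membrane (ENSG00000105974, chr7:116524994-116561179, plus strand). After knockdown 17, 79 and 62 counts were estimated for it, against 119, 41 and 97 with non-targeting siRNA. Knockdown replicate 1 was far below the other 5, and the other 2 knockdown samples lay inside the control range. The means were 34.9 ± 23.9 and 50.6 ± 21.2 CPM (SD, n = 3), a log2 fold change of -0.55 ± 0.91 (SE) with an adjusted p of 1 by edgeR's exact test, and p = 0.5 by the exact permutation test. Without knockdown replicate 1 the log2 fold change was -0.05. The canonical CAV1 transcript was estimated at 0, 40.8 and 37.5 counts in the knockdown and at most 0.02 in a control, while other protein-coding transcripts of the gene took those counts in the controls. Protein-coding transcripts as a class held 8.8, 59.3 and 43.0 counts in the knockdown and 91.8, 32.0 and 74.4 in the controls, so that the groups overlapped on this scale too.

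DDR1, a receptor tyrosine kinase activated by collagen (ENSG00000204580, chr6:30876421-30900156, plus strand), carries 3 miR-199a-5p seed matches in its 3′ UTR and was close to the floor of detection. It had 4, 8 and 6 estimated counts after knockdown and 11, 2 and 8 in the controls, in sum 18 and 21. None of these counts was estimated on the canonical transcript, in whose 3′ UTR the matches were found. Protein-coding transcripts held 68.9% of the counts and other transcripts 31.1%, and whether the counted transcripts hold the matches was not examined. DDR1 did not pass the filter on low counts. Fitted without that filter its log2 fold change was -0.15, with an adjusted p of 1 by edgeR's exact test. Counts of transcripts not matched to the annotation, which can include copies of this gene on alternate versions of chromosome 6, were not assigned to any gene.

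MET, the receptor of hepatocyte growth factor (ENSG00000105976, chr7:116672196-116798377, plus strand), had 45, 64 and 56 estimated counts after knockdown and 116, 49 and 92 in the controls. Controls 1 and 3 were above all knockdown samples, and control 2 fell among them. The means were 34.5 ± 11.9 and 50.8 ± 17.2 CPM (SD, n = 3), a log2 fold change of -0.57 ± 0.44 (SE) with an adjusted p of 1 by edgeR's exact test, and p = 0.3 by the exact permutation test. Nearly all of it, 98.6%, lay on protein-coding transcripts. In TPM the samples took another order, with 17.9, 14.1 and 17.1 in the knockdown and 50.3, 18.2 and 16.4 in the controls, so that non-targeting replicate 3 was below 2 of the knockdown samples on that scale.

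MTOR encodes the kinase of the complexes mTORC1 and mTORC2 that couple growth to nutrients (ENSG00000198793, chr1:11106535-11262556, minus strand). It was measured by few counts, 7, 16 and 22 after knockdown and 39, 15 and 37 in the controls. As for MET, controls 1 and 3 were above all knockdown samples while control 2 was not. The means were 9.83 ± 6.15 and 17.9 ± 7.03 CPM (SD, n = 3), a log2 fold change of -0.91 ± 0.68 (SE), the lowest of the 7 tested members, with an adjusted p of 1 by edgeR's exact test, and p = 0.3 by the exact permutation test. Exons of ANGPTL7, a gene on the opposite strand, overlap those of MTOR by 151 bases, and ANGPTL7 had 83, 22 and 20 counts after knockdown and 25, 33 and 25 in the controls. Reads of the shared bases cannot be told apart without a stated strand. Antisense RNAs of HIF1A (HIF1A-AS1, HIF1A-AS3) and MTOR-AS1 overlap these members too and were not among the quantified transcripts that matched the annotation.

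CAV2 encodes caveolin-2, the partner that forms oligomers with caveolin-1 (ENSG00000105971, chr7:116287380-116508541, plus strand). It had 258, 146 and 150 estimated counts after knockdown and 184, 179 and 173 in the controls. In counts replicate 1 of the knockdown was highest and its other replicates lowest. Scaled to library size the 6 samples were close together, with means of 108.0 ± 10.9 and 107.9 ± 8.17 CPM (SD, n = 3) and a log2 fold change of 0.00 ± 0.10 (SE), with an adjusted p of 1 by edgeR's exact test, and p = 1 by the exact permutation test. CAV2 had the smallest SE of the 7 tested members, and its direction turned under 9 of the alternatives. Protein-coding transcripts held 62.9% of its counts, from 55.4% in knockdown replicate 1 to 76.0% in non-targeting replicate 1.

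ITCH, a ubiquitin ligase of the NEDD4 family (ENSG00000078747, chr20:34363235-34511773, plus strand), had 11, 0 and 1 estimated counts after knockdown and 21, 9 and 9 in the controls. In counts, knockdown replicates 2 and 3 were below every control and replicate 1 was above 2 of them. Scaled to library size the values were 5.12, 0 and 0.702 CPM after knockdown and 11.96, 5.89 and 5.29 CPM in the controls, and in TPM 1.26, 0 and 0.415 against 3.59, 1.30 and 2.54. On both of these scales every knockdown sample was below every control, narrowly so for knockdown replicate 1. ITCH did not pass the filter on low counts. Fitted without that filter its log2 fold change was -1.81, with an adjusted p of 1 by edgeR's exact test. All of its counts lay on protein-coding transcripts.

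EZH2, the enzyme of the Polycomb complex PRC2 that methylates histone H3 (ENSG00000106462, chr7:148807257-148884321, minus strand), had 34, 37 and 30 estimated counts after knockdown and 34, 37 and 39 in the controls. The ranges nearly coincided. The means were 20.6 ± 4.60 and 22.2 ± 2.52 CPM (SD, n = 3), a log2 fold change of -0.12 ± 0.20 (SE) with an adjusted p of 1 by edgeR's exact test, and p = 0.7 by the exact permutation test. Without knockdown replicate 1 it was 0.07. In TPM the mean was higher in the knockdown, 25.2 ± 5.38 against 19.9 ± 5.57 (SD, n = 3), with overlapping ranges, so that its direction depended on the scale.

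**Figure D2:**
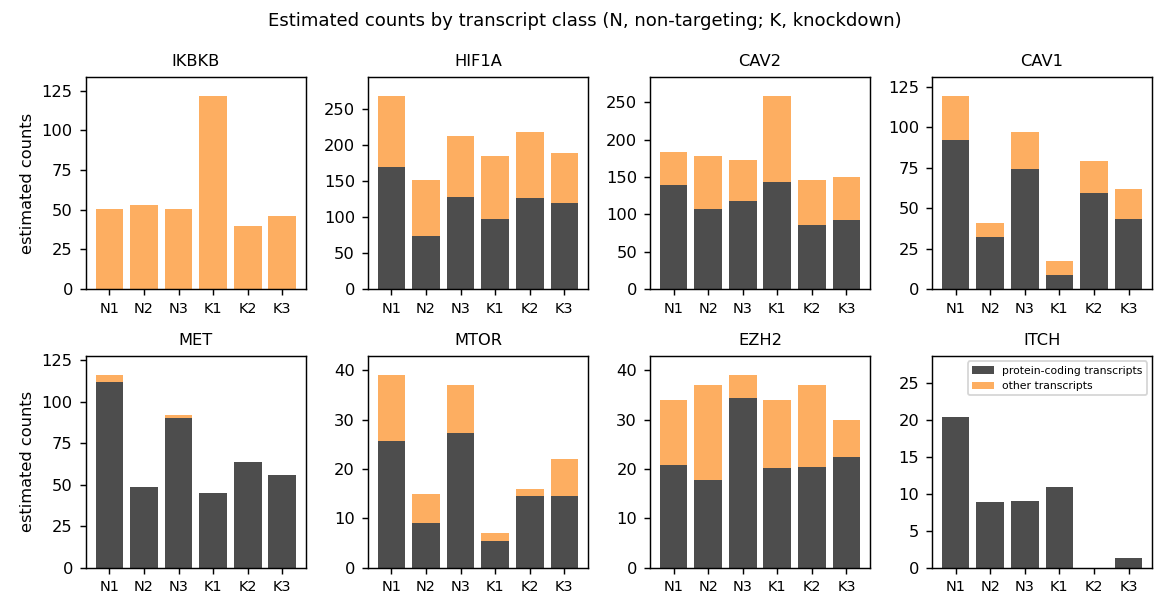
Estimated counts (y axis, from 0, scaled per panel) of 8 reported targets in the 3 non-targeting (N1 to N3) and 3 DNM3OS knockdown (K1 to K3) samples, divided into protein-coding transcripts (dark) and all other transcripts (orange). IKBKB has 0 counts on protein-coding transcripts in every sample, whereas MET lies 98.6% and ITCH 100% on them.

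Over the tested members, edgeR's exact test called 0 of 7 higher and 0 of 7 lower at an adjusted p below 0.05, beside 0% and 0.00846% of all 11814 tested genes. None of the 7 had an unadjusted p below 0.05, which 2.92% of all tested genes had, and edgeR's quasi-likelihood test and DESeq2 called 0 genes of any kind. A higher mean in the knockdown was found for 2 of 7 members (28.6%, IKBKB and CAV2), beside 50.6% of all tested genes, and the median log2 fold change was -0.12 beside 0.00. None of the 7 tested members was higher, or lower, in every knockdown sample than in every control, against 4.42% and 3.56% of all tested genes. ITCH, which was not tested, was lower in every knockdown sample once scaled. With so few members, these shares describe the 7 genes and set them apart from no others.

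**Figure D3:**
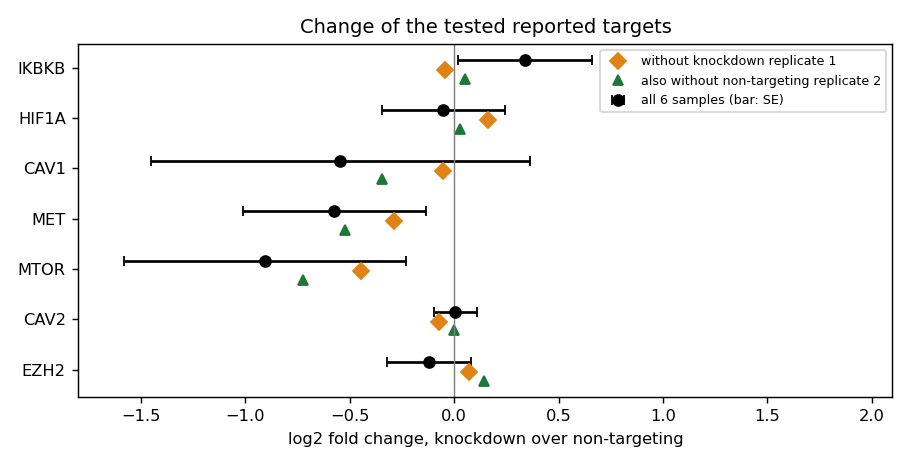
Log2 fold change of knockdown over non-targeting (x axis, log2 CPM units) for the 7 tested targets, with all 6 samples (black, bars ± SE from the spread of log2 CPM), without knockdown replicate 1 (orange) and without that sample and non-targeting replicate 2 (green). CAV1, MET and MTOR lie below 0 in all 3 settings, and IKBKB moves from 0.34 to -0.04 once knockdown replicate 1 is left out.

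Knockdown replicate 1 took the extreme value for several members. Over all tested genes it was the lowest of the 6 samples for 29.8% and the highest for 28.0%. Without it, 2 of 7 members had a higher mean, now HIF1A and EZH2, and the median was -0.05 beside -0.01 for all tested genes. When non-targeting replicate 2 was left out as well, a choice made after the data were seen, 3 of 7 had a higher mean and the median was 0.00. With these 2 samples per group, MET (log2 fold change -0.52, edgeR exact test unadjusted p = 0.0188, adjusted p = 0.42) and MTOR (-0.73, unadjusted p = 0.0318, adjusted p = 0.49) had an unadjusted p below the threshold and an adjusted p above it, and both were lower in the knockdown. In that fit 8.85% of the 11975 tested genes had an unadjusted p below 0.05, and 5.62% were lower with such a p. Neither gene was higher, the direction asked about.

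A further 35 genes named in the literature as targets of these microRNAs were read from a list written without a database. Of them 27 were tested and 0 were called by edgeR's exact test, beside 0% of all tested genes called higher and 0.00846% lower. A higher mean was found for 8 (29.6%) and a lower one for 19, beside 50.6% of all tested genes with a higher mean. The median log2 fold change was -0.13, with a range of -1.02 to 0.61. At an unadjusted p below 0.05, 0 were higher and 1 was lower, beside 2.92% of all tested genes in either direction. The lower one was CD44, the hyaluronan receptor, with 14, 21 and 18 counts in the knockdown and 45, 14 and 54 in the controls (log2 fold change -1.02 ± 0.60 (SE), adjusted p = 1). ERBB2, the receptor tyrosine kinase HER2, came next, with 311, 398 and 409 counts in the knockdown against 872, 365 and 604 (log2 fold change -0.64 ± 0.44 (SE), adjusted p = 1). In both genes non-targeting replicate 2 lay with the knockdown samples and the groups overlapped.

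Genes whose products act with the members were read in the same way, 63 in all. Of these 52 were tested and 0 were called by edgeR's exact test, beside 0% of all tested genes called higher and 0.00846% lower. Higher means numbered 25 (48.1%) and lower ones 27, beside 50.6% of all tested genes with a higher mean. The median log2 fold change was -0.01. At an unadjusted p below 0.05, 0 were higher and 1 lower, beside 2.92% of all tested genes in either direction. In 1 of the 52 every knockdown sample was above every control, and in 2 below, against the 4.42% and 3.56% of all tested genes.

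For the kinase IKKβ, 7 of 9 NF-κB pathway genes were tested and 4 had a higher mean. The precursor gene NFKB2 had a log2 fold change of 0.98 ± 0.45 (SE) on 6 to 21 counts, and IKBKG, the regulatory subunit of the kinase, whose reads can be shared with a near-identical pseudogene, 0.42 ± 0.52 (SE). Among MET partners 5 of 8 were tested and 2 had a higher mean, and the ubiquitin ligase gene CBL stood at -0.30 ± 0.25 (SE) and the phosphatase gene PTPN11 at -0.13 ± 0.13 (SE). In the mTOR complexes 9 of 10 were tested and 3 had a higher mean. MAPKAP1, the mTORC2 subunit SIN1, was lower in every knockdown sample than in every control, with 16, 27 and 23 counts against 35, 29 and 50 (log2 fold change -0.74 ± 0.41 (SE), edgeR exact test adjusted p = 1), and AKT1S1, the mTORC1 subunit PRAS40, stood at -0.32 ± 0.28 (SE).

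In the HIF pathway 6 of 8 genes were tested and 4 had a higher mean, with log2 fold changes of -0.52 ± 0.22 (SE) for EPAS1, which encodes HIF-2α, and -0.08 ± 0.14 (SE) for the prolyl hydroxylase gene EGLN1. Of 7 caveolae genes 6 were tested and 2 had a higher mean, and the cavin genes CAVIN3 and CAVIN2 stood at -0.78 ± 0.42 (SE) and -0.83 ± 0.58 (SE). EHD2, which encodes an ATPase at the neck of caveolae, was the partner gene that was higher in every knockdown sample on the CPM scale, with raw counts of 54, 35 and 34 against 40, 26 and 33 that overlapped (log2 fold change 0.29 ± 0.12 (SE), edgeR exact test adjusted p = 1). The remaining collagen receptor of this kind, DDR2, had at most 1 count in a sample. Among the ITCH relatives and adaptors, 9 of 10 were tested and 6 had a higher mean. NDFIP1, an adaptor that recruits and activates NEDD4-family ligases, had 13, 5 and 5 counts in the knockdown and 23, 11 and 15 in the controls, and on the CPM scale every knockdown sample was below every control (log2 fold change -1.12 ± 0.31 (SE), edgeR exact test unadjusted p = 0.0218, adjusted p = 1). The ligase gene HECW2 stood at 0.34 ± 0.16 (SE). All 10 PRC2 genes were tested and 4 had a higher mean, among them the accessory subunit genes PHF1 (0.98 ± 0.75 (SE), 1 to 23 counts) and AEBP2 (0.49 ± 0.23 (SE)).

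None of these partner differences passed the threshold with all 6 samples. Without knockdown replicate 1 and non-targeting replicate 2, 1 partner gene was called higher, RBBP4, a histone-binding subunit of PRC2, with a log2 fold change of 0.75 and an adjusted p of 0.0313 by edgeR's exact test. In that fit 13 of 11975 genes (0.109%) were called higher and 59 (0.493%) lower. With all samples RBBP4 had 367, 738 and 530 counts in the knockdown and 383, 598 and 522 in the controls, and the groups overlapped.

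At the host loci, DNM3, which encodes dynamin-3 and lies opposite DNM3OS, had 75, 32 and 29 counts in the knockdown and 44, 30 and 34 in the controls (log2 fold change 0.27 ± 0.26 (SE), adjusted p = 1 by edgeR's exact test). DNM1 (0.39 ± 0.18 (SE)) and DNM2 (-0.04 ± 0.28 (SE)), the genes that hold the hairpins of miR-199b and miR-199a-1 on their opposite strand, were not called either. Of the DNM2 counts, 89.2% lay on 1 retained-intron transcript, and of the DNM1 counts 86.2% on 1 transcript of the same class. Exons of TMED1 overlap those of DNM2 by 910 bases on the opposite strand, and exons of CIZ1 (17 to 42 counts per sample) those of DNM1 by 46 bases, so those reads cannot be told apart here.

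All tested genes with an annotated 3′ UTR, 10543 in number, were grouped by how many seed matches they hold. For miR-199a-5p the median log2 fold change was -0.02 in 8978 genes with 0 matches, 0.02 in 1307 with 1 and 0.06 in 258 with 2 or more. The quartiles of the last group ran from -0.14 to 0.17, so most of the spread lay within the groups. The groups also differed in 3′ UTR length, with medians of 1253, 2789 and 5004 bases, whose part was not tested. For miR-199a-3p the medians were -0.01, 0.01 and 0.03, for miR-214-3p -0.02, 0.00 and 0.01, and for miR-214-5p -0.02, 0.03 and 0.01. Without knockdown replicate 1, the medians of genes with at least 1 match were -0.005, -0.023, -0.002 and -0.011 for the 4 arms in the same order, and those of genes with 0 matches were -0.0097, -0.0061, -0.0114 and -0.0084. Genes with a match then had the slightly higher median for miR-199a-5p and miR-214-3p and the lower one for the other arms. The members with a match, IKBKB, HIF1A, CAV1 and MTOR among those tested, had log2 fold changes of 0.34 (-0.04 without knockdown replicate 1, and on no protein-coding transcript), -0.05, -0.55 and -0.91, and those without, MET, CAV2 and EZH2, of -0.57, 0.00 and -0.12.

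**Figure D4:**
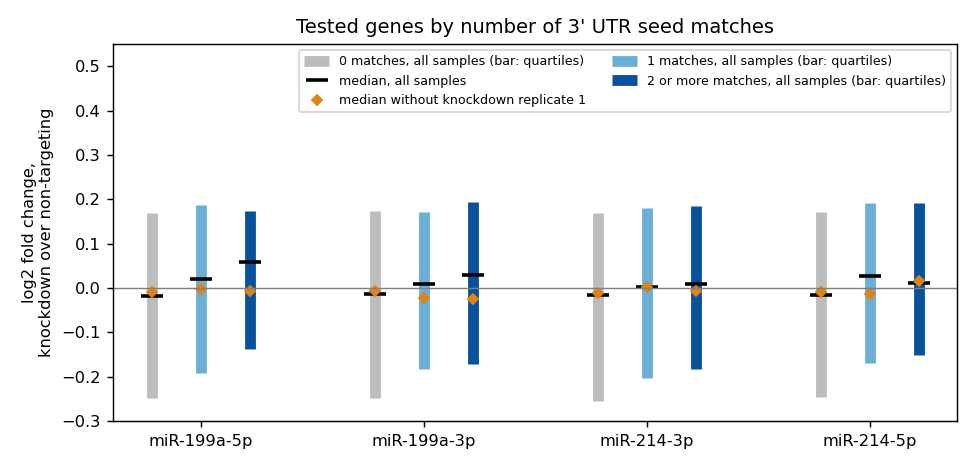
Log2 fold change of knockdown over non-targeting (y axis) of tested genes with 0 (grey), 1 (light blue) or 2 or more (dark blue) 7-base seed matches in the annotated 3′ UTR, for each of the 4 mature arms (x axis). Bars span the quartiles, black lines are medians with all samples and orange diamonds medians without knockdown replicate 1. The medians with all samples lie between -0.02 and 0.06, and every bar spans 0.

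The genes whose profile over the 6 samples was most like that of a member were named for the 2 members with the highest mean CPM. For HIF1A these were LUC7L2, a splicing factor gene, with a root mean square difference of 0.032 log2 CPM after centring each gene on its mean, and the zinc finger gene ZNF248 with 0.058. For CAV2 they were YIPF4, which encodes a Golgi membrane protein, with 0.034, and GNPDA1, a glucosamine-6-phosphate isomerase gene, with 0.035. LUC7L2 was lowest in knockdown replicate 1 (35.4 CPM) and next lowest in non-targeting replicate 2 (39.3 CPM), against 51.8 to 62.8 CPM in the other 4. HIF1A showed the same order at its low end, which follows from choosing LUC7L2 by its likeness and is no separate result.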

How the data were processed

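Libraries of 3 DNM3OS knockdown and 3 non-targeting samples of SKOV3 were sequenced as paired reads, and the authors ran kallisto 0.43.0 on an Ensembl GRCh38 transcript set. The deposited values per transcript are an estimated count without normalization, a TPM and an effective length; a strand option is not given in the sources used here. Of 173259 transcripts, 155518 matched GENCODE release 44 by identifier, and the other 17741 were left out. Deposited estimated counts and TPM were summed per gene, and counts were rounded.

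Genes were filtered with filterByExpr (minimum count 10), TMM-normalized and tested with edgeR 4.0.16 (R 4.3.3) by the exact test with Benjamini-Hochberg adjustment over all 11814 genes; the biological coefficient of variation was 0.232. The SE given beside a log2 fold change was computed from the replicates' log2 CPM (prior count 2). It is the SE of the difference between the groups' mean log2 CPM, which can differ from edgeR's log2 fold change. Single members were also tested by an exact permutation test, two-sided. On counts simulated for knockdown against non-targeting, the script was tested before use. That simulation did not examine small changes, changed genes with few counts or a sample that stands apart.

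The members and lists were chosen with earlier results of these data known. Named were all members, of each list without a call the 2 genes with the smallest p, all host genes, the 2 genes most like each of the 2 most highly counted members, and antisense partners of members with at least 10 counts in a sample. RBBP4, PTPRC, MYH11, KRT7, KRT8, KRT18, EPCAM, MUC1, EHD2, TMED1, CIZ1, CD3E, VWF, CD68, PECAM1, COL1A1 and DDR2 were named after their values were seen. Tried in addition were the quasi-likelihood test of edgeR (replicate block or none), DESeq2 1.42.0, RLE, other filters, length-scaled TPM counts, protein-coding transcripts only, 8-base seed matches, and each sample left out.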

Additional observations from a re-analysis of the deposited data

How the results depend on the processing

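No member passed the threshold under any alternative run, and leaving out each sample in turn gave 0 called members, 0 called other targets and 0 called partner genes. The count of members with a higher mean, 2 with all samples, was 1 with the replicate block, with DESeq2, with RLE, with a filter of 1 CPM in 3 samples (of 9 tested) and with protein-coding transcripts only, 3 with length-scaled TPM counts, and 1 to 2 with each sample left out. The median log2 fold change of the members, -0.12, was -0.03 with length-scaled TPM counts, -0.48 with protein-coding transcripts only, where ITCH was tested and IKBKB was not, and ranged from -0.53 to -0.05 with each sample left out. ITCH entered in 3 of those fits, and over the same 7 genes the medians without knockdown replicates 2 and 3 and without non-targeting replicate 2 were -0.28, -0.14 and -0.19.

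Samples with the same replicate number had correlations of their deviations from the group means of -0.40 to 0.23. Deviations within a group of 3 depend on each other, so these values cannot show whether the samples were paired. With the replicate block edgeR's quasi-likelihood test called 0 genes. CAV2, at 0.005, turned to -3.5e-05 with the block, -0.0026 with DESeq2, -0.0015 with RLE, -0.0036 with the 1 CPM filter, -0.14 with protein-coding transcripts only and -0.0004 without knockdown replicate 1 and non-targeting replicate 2, an alternative chosen after seeing the data. HIF1A turned to 0.012 with protein-coding transcripts only and 0.03 without those 2 samples, and EZH2 to 0.33 with length-scaled TPM counts and 0.14 without those 2 samples. With each sample left out in turn, log2 fold changes ran from -1.01 to -0.05 for CAV1, -0.071 to 0.075 for CAV2, -0.28 to 0.07 for EZH2, -0.21 to 0.16 for HIF1A, -0.045 to 0.54 for IKBKB, -0.81 to -0.29 for MET and -1.41 to -0.45 for MTOR. Values without non-targeting replicate 1 were 0.11 for HIF1A and -0.02 for CAV2, and without replicate 3 CAV2 was at -0.05.

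Partner genes called went from 0 to 1 without those 2 samples, while calls among all genes went from 1 to 13 higher and 59 lower. With 8-base matches the median for miR-214-3p was 0.0165, against 0.004. On protein-coding transcripts only, mean TPM was 0 for IKBKB, 26.7 for HIF1A, 36.0 for CAV2, 34.0 for CAV1, 1.62 for MTOR, 8.04 for EZH2 and 5.29 for DDR1. Causes of these changes were not tested beyond what each alternative leaves out. Depth, 1.6 to 2.0 CPM for 3 counts, limits DDR1, ITCH and MTOR most.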
